A study of Mus musculus with 6 samples.

Results

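Tetraspanins are small membrane proteins that cross the bilayer several times and gather integrins, immunoglobulin superfamily proteins and proteases into surface microdomains. CD9, CD63 and CD81 are the proteins most often used to mark extracellular vesicles (EVs), and CD63 also cycles through lysosomes and the granules of eosinophils. CD37 and CD53 are largely restricted to leukocytes. Transcripts of 10 tetraspanin genes, chosen by symbol from the 16254 genes of the deposited count table, were measured in mouse eosinophils exposed to EVs from activated TH2 cells. All 10 (Cd9, Cd37, Cd53, Cd63, Cd81, Cd82, Cd151, Tspan4, Tspan13 and Tspan14) had a row in the table and passed the filter on low counts. They were listed by name, with no threshold on a measured value.

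Eosinophils were grown from the bone marrow of C57BL/6 mice aged 6 to 12 weeks, first with FLT3 ligand and stem cell factor and then with IL-5, and were treated on culture day 12. The EV-treated group received 5e9 EVs per ml purified from the medium of activated TH2 cells, and the sham-treated group received unconditioned medium taken through the same purification. RNA was collected after 24 h from 3 samples per group and sequenced as poly(A)-selected libraries. The labels call the 3 samples of a group biological replicates but do not say whether they came from separate mice, so p-values measure only the spread between these samples.

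Library totals lay between 23697620 and 37874426 estimated counts, and counts of the 10 tetraspanins between 125 and 44726 per library. The label was checked against markers, of which 12 eosinophil genes summed to between 30500 and 38500 CPM in sham-treated and between 43600 and 48700 in EV-treated samples (CPM, counts scaled to a common library total). Markers of other cells were lower in sum, and some moved with treatment. The 11 measured macrophage markers summed to between 682 and 1170 CPM with sham and between 253 and 357 with EVs, and 9 of them fell. Mast cell and basophil markers summed to between 130 and 169 with sham and between 268 and 329 with EVs, and dendritic cell markers to between 4.84 and 5.64 and between 7.19 and 9.61. T cell markers summed to between 12.6 and 31.4 with sham and between 4.18 and 5.50 with EVs, but most of the sham sum was Cd28. The 8 others summed to between 2.72 and 8.50 with sham and between 3.30 and 3.97 with EVs, which overlapped. Neutrophil markers (654 to 782 and 616 to 736), megakaryocyte and platelet markers (527 to 599 and 560 to 664) and B cell markers (5.67 to 6.87 and 5.89 to 6.31) overlapped between the groups in sum. Single genes of these lists moved in both directions, with 2 of 10 tested neutrophil markers higher (Ly6g and Cxcr2) and 5 lower (Mmp8 and Camp among them), and 1 of 8 tested platelet markers higher (Itga2b) and 2 lower (Pf4 and Ppbp). In bulk RNA, fewer cells of a type and less RNA per cell cannot be told apart. The paper reports that EVs of the kind used here raised eosinophil survival and lowered apoptosis in culture, compared with untreated cells. The viability of the sequenced samples is not given in the sources used here, and its part in the differences was not tested.

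Of the 10 tetraspanins, 6 differed with EV treatment, in both directions. Cd81, Cd53 and Cd9 rose, Tspan4, Cd151 and Cd63 fell, and Cd37, Cd82, Tspan13 and Tspan14 did not pass an adjusted p of 0.01 in edgeR's quasi-likelihood test. This cutoff called 23.7% of the 13498 genes tested, 12.1% as higher and 11.6% as lower, against 3 higher and 3 lower of the 10 tetraspanins. The 10 tetraspanins lay between percentiles 40.7 and 99.5 of mean level among genes tested, and these shares were not matched for level. Higher genes were 50.9% of all calls, and 30.7% with library totals as the only scaling, where the median of all genes shifted by -0.148 on the log2 scale and 2 of the 10 were higher and 3 lower. Their median log2 fold change (EV over sham, called log2 change from here on) was 0.20, and that of all genes tested was -0.01. In 7 of the 10 genes the 3 EV-treated values did not overlap the 3 sham-treated values, which was so for 49.6% of genes tested. The EV-treated samples were the higher ones in 4 of the 10 (24.8% of genes tested) and the lower ones in 3 (24.7%). A log2 change of at least 1 in size together with the adjusted p, reached by 9.45% of genes tested, was met by Tspan4 and by no other of the 10. When sham replicate 1 was left out, Cd37 and Tspan13 also passed, giving 5 higher and 3 lower.

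**Figure D1:**
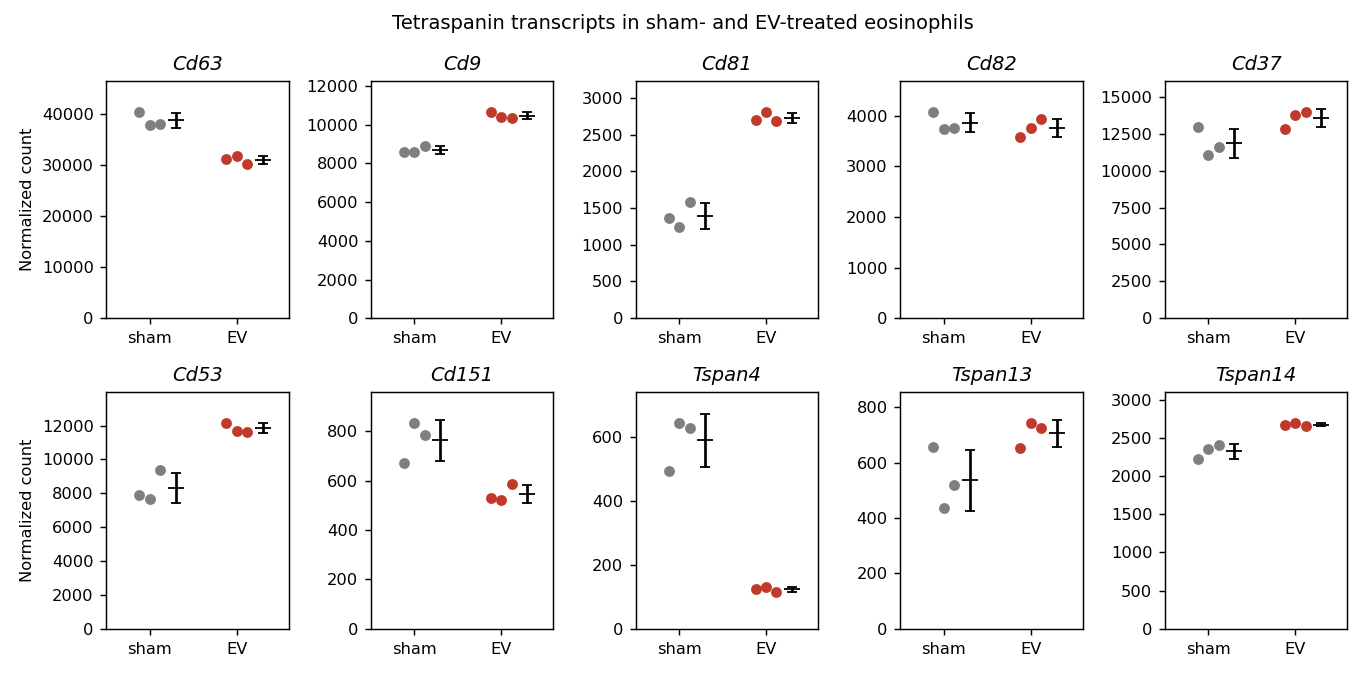
Normalized counts (linear axes from 0) of the 10 tetraspanins in 3 sham-treated (gray) and 3 EV-treated (red) samples, with the mean and SD beside the points. Cd81 lies between 1235 and 1584 in sham-treated and between 2685 and 2807 in EV-treated samples, and Tspan4 between 496 and 646 and between 117 and 130.3.

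Cd81, which encodes a common EV marker, had the largest increase of the 10. Its normalized counts, which are rounded counts scaled to a common library size, were 1359.7, 1235 and 1584 in sham replicates 1 to 3 and 2695, 2807 and 2685 in EV replicates 1 to 3. Every EV-treated sample was above every sham-treated sample, and the EV-treated samples varied less. The log2 change was 0.97 (standard error 0.0908, adjusted p = 2.24e-05), or 1.96-fold. It stayed between 0.89 and 1.08 with each sample left out and passed each time.

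Cd9, whose protein shares direct binding partners with CD81, also rose. It had 8592, 8578 and 8912 normalized counts with sham and 10664, 10399.5 and 10329 with EVs, with no overlap. The log2 change was 0.27 (standard error 0.0514, adjusted p = 0.00255), an increase of 20.4%. This call was close to the cutoff. Without EV replicates 1, 2 and 3 in turn the adjusted p was 0.0157, 0.0143 and 0.0113, and with library totals as the only scaling it was 0.0908, at a log2 change of 0.12. Within each library, the ratio of Cd81 to Cd9 normalized counts lay between 0.144 and 0.178 with sham and between 0.253 and 0.270 with EVs. The ratio was higher in every EV-treated sample, by 0.71 on the log2 scale. The exact two-sided permutation test gave p = 0.1 for this ratio, the smallest that 3 against 3 allows (also 0.1 after adjustment over the 5 ratios examined). It gave the same for each of the 4 other ratios. In those, one gene rose and the other fell without overlap, so that outcome was fixed by the single genes.

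Cd63 is the tetraspanin of lysosomes, secretory granules and multivesicular bodies, and its appearance on the cell surface is used as a sign of degranulation. It had 40299, 37657 and 37978 normalized counts in sham-treated and 31118, 31693 and 30143 in EV-treated samples. All EV-treated values were below all sham-treated values. The log2 change was -0.32 (standard error 0.0506, adjusted p = 0.000776), a change of -19.8%. It lay between -0.34 and -0.28 with each sample left out and passed each time. The ratio of Cd9 to Cd63 went from between 0.213 and 0.235 to between 0.328 and 0.343, and that of Cd81 to Cd63 from between 0.0328 and 0.0417 to between 0.0866 and 0.0891, with no overlap in either. That of Cd53 to Cd63 went from between 0.197 and 0.246 to between 0.369 and 0.391, again with no overlap. That of Tspan4 to Cd9 went from between 0.0577 and 0.0753 to between 0.0113 and 0.0125, also with none. Each of these ratios pairs a gene higher in every EV-treated sample with one lower in every EV-treated sample. Their lack of overlap therefore follows from the single genes and adds no separate result.

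Of the leukocyte tetraspanins, Cd53 rose and Cd37 did not pass, and the difference between them was not tested. Cd53 had 7920.05, 7690.3 and 9356 normalized counts with sham and 12170.3, 11699 and 11634 with EVs. Sham replicate 3 was the highest of its group but still below every EV-treated sample. The log2 change was 0.51 (standard error 0.0762, adjusted p = 0.000538), or 1.42-fold. Cd37 had 12942, 11054 and 11595 with sham and 12845, 13795 and 13982 with EVs, so that sham replicate 1 lay above EV replicate 1. Its log2 change was 0.19 (95% confidence interval 0.04 to 0.34, adjusted p = 0.0558), 0.26 without sham replicate 1 (adjusted p = 0.00528) and 0.04 with library totals as the only scaling. Cd82, a tetraspanin of the cell surface and of antigen-presenting compartments, had 4071, 3735 and 3762 with sham and 3587, 3749 and 3931 with EVs. These values overlapped, and the log2 change of -0.04 had a 95% confidence interval from -0.18 to 0.11.

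Tspan4, whose protein is best known from migrasomes, the vesicles that form on the retraction fibers of migrating cells, had the largest change of the 10. It had 496, 646 and 629 normalized counts with sham and 125, 130.3 and 117 with EVs. Even the lowest sham-treated sample, replicate 1, was far above all EV-treated samples. The log2 change was -2.25 (standard error 0.159, adjusted p = 3.59e-06), so that sham-treated samples had 4.75 times the level of EV-treated samples. In size this fold change exceeded that of 94.6% of genes tested. It stayed between -2.36 and -2.18 with each sample left out. Macrophage markers moved in the same direction, with summed levels of 682, 1170 and 1100 CPM in sham replicates 1 to 3 against at most 357 with EVs, and sham replicate 1 was the lowest of its group in both measures. The part of macrophage RNA in the result was not tested.

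Cd151, which binds laminin-binding integrins, also fell. It had 671, 835 and 785 normalized counts with sham and 528, 521 and 586 with EVs, with no overlap. The log2 change was -0.48 (standard error 0.116, adjusted p = 0.00861). This call passed without sham replicate 1 (adjusted p = 0.00258) but not without sham replicate 2 (0.0243), sham replicate 3 (0.0256) or EV replicates 1, 2 and 3 (0.0406, 0.0497 and 0.0240), nor with limma-voom (0.0104) or without the filter on low counts (0.0109). The direction was the same in all of these fits. Sham replicate 1 was the lowest and replicate 2 the highest sham-treated sample, as for the summed macrophage markers, whose part in the result was not tested.

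Tspan14 belongs to the subgroup of tetraspanins that carry the protease ADAM10 to the cell surface. It had 2217, 2353 and 2403 normalized counts with sham and 2661, 2697 and 2654 with EVs, higher in every EV-treated sample. Its log2 change of 0.20 (95% confidence interval 0.06 to 0.34) did not pass, at an adjusted p of 0.0297, and was 0.05 with library totals as the only scaling. Adam10 itself had a log2 change of 0.07 (adjusted p = 0.447), with overlapping groups. Tspan13 had 655, 438 and 518 with sham and 651, 744 and 723 with EVs. Sham replicate 1 reached the level of EV replicate 1, and the log2 change of 0.39 had an adjusted p of 0.0652, and of 0.00636 without sham replicate 1, where it was 0.57. With library totals as the only scaling it was 0.25.

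**Figure D2:**
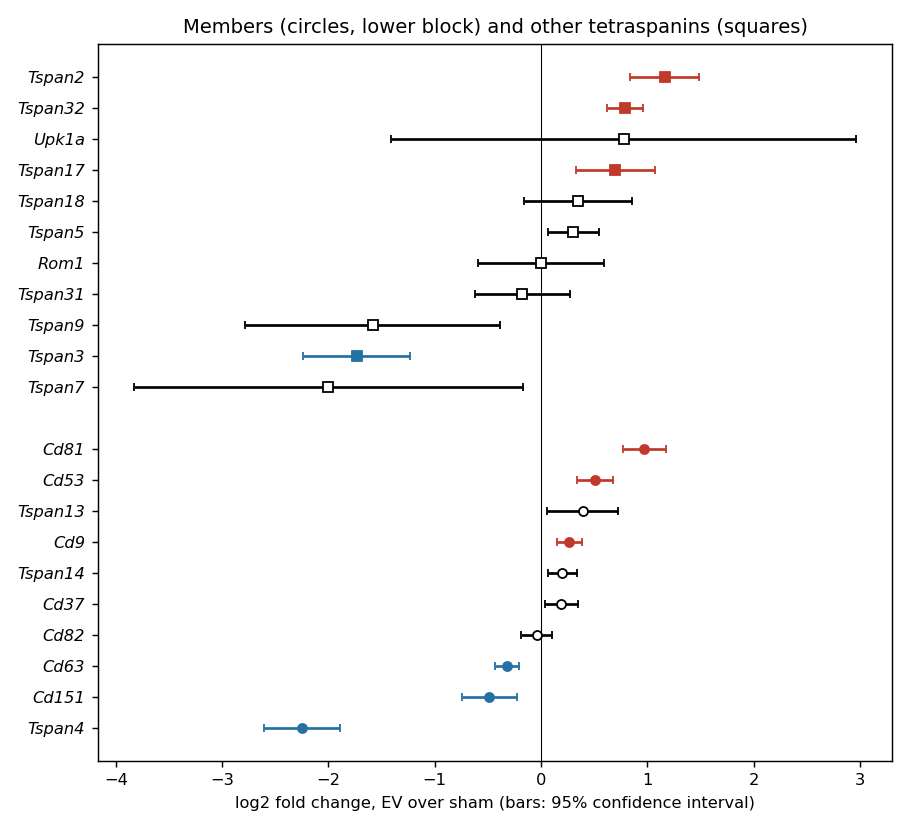
Log2 changes with 95% confidence intervals of the 10 tetraspanins studied (circles) and of 11 other tetraspanins (squares), filled in red or blue where the gene was higher or lower with EVs at an adjusted p under 0.01. Tspan4 lies at -2.25 and Cd81 at 0.97, and Tspan8 and Tspan33, which had almost no counts in one group, are not drawn.

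Levels of different genes were compared as normalized counts per kilobase of the longest protein-coding transcript. Cd63 led in both groups, with 34850.0 ± 1300.0 (SD, n = 3) with sham and 27940.0 ± 707 (SD, n = 3) with EVs, followed by Cd9 with 7080.0 ± 154 and 8521 ± 144 (SD, n = 3 each). With sham, Cd53 and Cd37 came next and overlapped in replicates, at 4777 and 4669, and were followed by Cd82 at 2114. Tspan14 and Cd81 overlapped at 938.5 and 909, and Cd151, Tspan4 and Tspan13 were lowest, at 409, 403 and 278, each overlapping the next. With EVs no neighbors in the order overlapped at these lengths. Cd53 stood at 6794 and Cd37 at 5329, Cd81 at 1780.0 was above Tspan14 at 1078, and Tspan4 at 84.5 was last, below Tspan13 at 365.5 and Cd151 at 292.

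The 10 genes together summed to 56420.0 ± 1709 (SD, n = 3) normalized counts per kilobase with sham and 54240.0 ± 702 (SD, n = 3) with EVs, and the 2 groups overlapped. The sum differed by -3.87% on this scale. As a share of all counts, with no further scaling, the 10 genes took 0.256% to 0.268% with sham and 0.233% to 0.242% with EVs, which did not overlap and differed by -9.33% on average. The makeup of the sum shifted. Cd63 held 62.6%, 62.2% and 60.5% of it in sham replicates 1 to 3 and 51.7%, 52.0% and 50.8% in EV replicates 1 to 3. The share of Cd53 was 8.47% on average with sham and 12.5% with EVs, that of Cd9 12.6% and 15.7%, that of Cd81 1.61% and 3.28%, and that of Tspan4 0.716% and 0.156%. These shares are of transcripts per length and are not of protein. They rest on transcript lengths from an annotation that may not be the one used for counting. With the median in place of the longest transcript, Cd63 stayed first and Tspan13 stayed last with sham, while the 8 others changed place, and the share of Cd63 with sham was 53.8%. In the EV-treated samples Cd37 then stood at 10860, above Cd9 at 8521. There Cd82 overlapped Cd81, and Tspan13 overlapped Cd151.

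**Figure D3:**
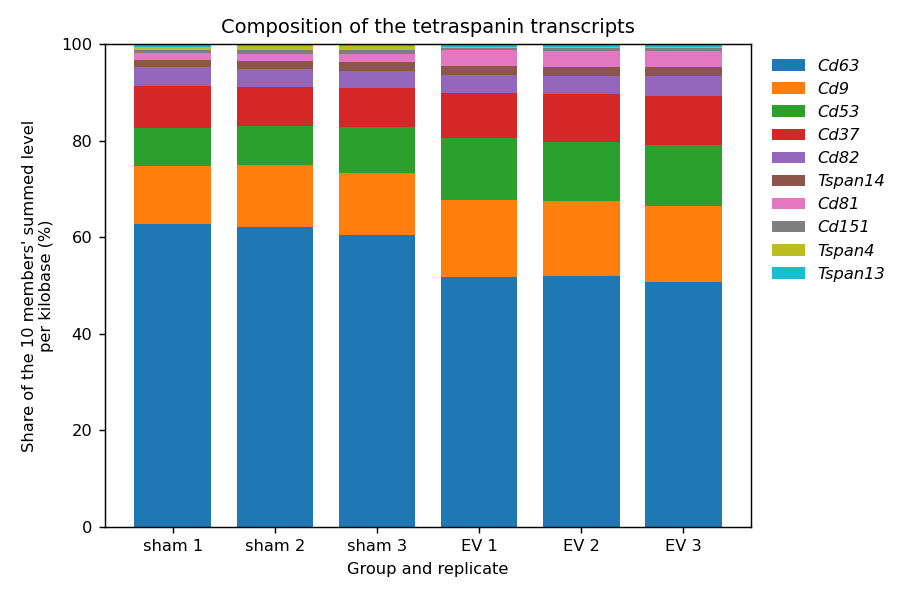
Share (%) of each gene in the summed level per kilobase of the 10 tetraspanins, for each of 3 sham-treated and 3 EV-treated samples. The Cd63 segment covers 60.5% to 62.6% with sham and 50.8% to 52.0% with EVs, and the Cd53, Cd9 and Cd81 segments are wider with EVs.

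Positions are those of GENCODE vM21 on GRCm38 (mm10, the build named in the submitters' processing notes). The 10 genes lie on 7 chromosomes, and 4 of them on chromosome 7. Cd151 (chr7:141467392-141471473, plus strand) and Tspan4 (chr7:141475240-141493427, plus strand) are 3.8 kb apart, and both fell. Between them lies 1 protein-coding gene, Polr2l, which encodes a subunit of RNA polymerases and had a log2 change of 0.47 (adjusted p = 0.0327). Cd81 (chr7:143052739-143067934, plus strand) lies 33.1 kb from Tspan32, another tetraspanin gene of blood cells, with no protein-coding gene between them, and both rose. Cd82 lies 84.6 kb from Tspan18, also with none between them, and neither passed, with log2 changes of -0.04 and 0.35. Cd63 lies at chr10:128900989-128912822 on the plus strand, Cd53 at chr3:106759921-106790149 and Cd9 at chr6:125460266-125494791, both on the minus strand. Exons of Tspan4, Cd37, Cd9, Cd81 and Cd151 overlap exons of Chid1, Tead2, Gm26728, R74862 and Gm10575, in that order, on the opposite strand. Whether the counting used strand is not given in the sources used here, so reads of these overlaps cannot be told apart. Chid1 had 538 ± 84.6 (SD, n = 3) normalized counts with sham and 506 ± 23.2 (SD, n = 3) with EVs (log2 change -0.09, adjusted p = 0.664). Tead2 had 13.0 ± 8.63 (SD, n = 3) with sham and 0.333 ± 0.577 (SD, n = 3) with EVs. The other 3 had no row in the count table.

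Of the 31-base words in Cd63 transcripts, 15.9% also occur in other genes, mostly in the pseudogene Cd63-ps, to which 21.3 ± 12.4 (SD, n = 3) normalized counts were assigned with sham and 33.0 ± 2.71 (SD, n = 3) with EVs. For Cd9 the share was 10.8%, with 3.73% of its words in the pseudogene Cd9-ps, the most in any single gene. For the other 8 genes the share was at most 0.162%. The split of reads between Cd63 or Cd9 and the genes that share these words is therefore uncertain, although few were assigned to Cd63-ps.

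RefSeq promoter windows (GRCm38.p6) were found for all 10 genes, 16 windows in all, and the 250 bases before each start were searched on both strands for short motifs. The windows of the genes with the largest rise (Cd81) and fall (Tspan4), of the most abundant gene (Cd63) and of the leukocyte gene that rose (Cd53) are shown 5′ to 3′ on the gene's strand, with capitals marking the GC box (GGGCGG or its reverse complement). They cover chr7:143052500-143052749 (Cd81), chr7:141474986-141475235 (Tspan4, the first of 2 starts), chr10:128909095-128909344 (Cd63) and chr3:106790150-106790399 (Cd53, minus strand).
Cd81: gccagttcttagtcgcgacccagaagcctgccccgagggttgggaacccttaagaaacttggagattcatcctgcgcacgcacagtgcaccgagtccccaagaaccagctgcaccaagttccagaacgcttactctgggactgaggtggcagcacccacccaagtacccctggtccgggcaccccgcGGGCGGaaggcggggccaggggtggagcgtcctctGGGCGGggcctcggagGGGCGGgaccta
Tspan4: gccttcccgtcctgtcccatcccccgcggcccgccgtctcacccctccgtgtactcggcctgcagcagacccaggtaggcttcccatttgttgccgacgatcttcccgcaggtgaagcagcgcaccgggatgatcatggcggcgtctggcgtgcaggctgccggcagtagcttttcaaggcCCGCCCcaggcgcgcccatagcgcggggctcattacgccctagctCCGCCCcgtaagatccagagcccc
Cd63: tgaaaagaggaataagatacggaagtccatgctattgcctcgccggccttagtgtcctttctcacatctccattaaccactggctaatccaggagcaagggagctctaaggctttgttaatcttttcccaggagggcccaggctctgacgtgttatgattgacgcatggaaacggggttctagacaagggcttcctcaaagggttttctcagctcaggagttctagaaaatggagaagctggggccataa
Cd53: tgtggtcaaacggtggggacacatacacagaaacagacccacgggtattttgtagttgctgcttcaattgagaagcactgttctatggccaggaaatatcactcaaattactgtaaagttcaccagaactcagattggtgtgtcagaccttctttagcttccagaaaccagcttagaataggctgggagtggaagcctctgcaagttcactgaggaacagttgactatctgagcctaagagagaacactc
Cd81 had 3 GC boxes and Tspan4 had 2, whereas Cd63 and Cd53 had none. The GC content was 65.6% and 68.0% in the first pair and 48.8% and 45.2% in the second, against a median of 52.4% over 32851 windows. Each of these pairs held 1 gene that rose and 1 that fell. Over all 10 genes, 9 of 16 windows held a GC box, which 32.7% of all windows did. The core bound by STAT dimers, TTCNNNGAA, was found in none of the 16 windows and in 7.02% of all windows. The E-box CACGTG was found in a window of Cd37 and in the second window of Tspan4, and in 6.02% of all windows, and the TATA core TATAAA in none of the 16 and in 12.4% of all. The 4 windows shown held no motif other than the GC box, and that of Cd63 lies inside the GENCODE span of the gene, before a RefSeq start. A match is a run of letters and does not show binding.

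Beyond the 10 genes, 16 other tetraspanins had a row in the table and 13 of them passed the filter. Of these, 4 rose and 2 fell, against 12.1% and 11.6% of all genes tested, with a median log2 change of 0.31. The counts were 3 higher and 2 lower with library totals as the only scaling. Tspan32, a blood cell tetraspanin that restrains T cell responses, had 2900, 2488 and 2556 normalized counts with sham and 4423, 4501 and 4804 with EVs, a log2 change of 0.79 (standard error 0.0749, adjusted p = 2.51e-05). Tspan2 had between 286 and 389 with sham and between 658 and 769.7 with EVs, a log2 change of 1.16 (adjusted p = 0.000151). Tspan3 had between 257 and 312 with sham and between 67.9 and 106 with EVs, a log2 change of -1.73 (adjusted p = 0.000211). Tspan17, which like Tspan14 is an ADAM10 partner, had a log2 change of 0.70 (adjusted p = 0.00833). Its call held in 1 of the 6 fits with a sample left out, the one without sham replicate 3 (adjusted p = 0.00987), and was weakest without EV replicate 2 (0.0480). Of the other ADAM10 partners, Tspan5 had a log2 change of 0.31 and did not pass (adjusted p = 0.0488), and Tspan33 fell.

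Tspan33 had 66, 34 and 70 counts in sham replicates 1 to 3 and 0, 1 and 2 in EV replicates 1 to 3. Scaled to library size, its summed counts were 68.4 times higher with sham (exact binomial 95% interval 23.0 to 335, counting error only). Tspan8 had 0 counts in each sham-treated library and 16, 18 and 20 in EV replicates 1 to 3, at least 4.87-fold higher at a floor of 3 counts per library. Its adjusted p was 0.00495 by edgeR, and it passed without sham replicate 1 (0.00921) or 2 (0.00887) but not without sham replicate 3 (0.0126) or EV replicates 1, 2 and 3 (0.0243, 0.0270 and 0.0339). The other 7 tested did not pass.

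Among genes whose proteins are known to bind tetraspanins, 24 of 29 passed the filter. Of these, 8 rose and 4 fell, against 12.1% and 11.6% of all genes tested, with a median log2 change of -0.09. With library totals as the only scaling, 6 were higher and 6 lower. The 2 immunoglobulin superfamily proteins that bind CD9 and CD81 directly both fell while Cd9 and Cd81 rose. Ptgfrn had 315, 315 and 369 normalized counts with sham and 59.9, 65.1 and 60.1 with EVs, a log2 change of -2.43 (standard error 0.185, adjusted p = 5.96e-06). Igsf8 had 312, 664 and 672 with sham and 96.9, 81.4 and 87.9 with EVs, a log2 change of -2.63 (adjusted p = 6.25e-05). Cd36, a scavenger receptor found in tetraspanin complexes, fell by 2.09 on the log2 scale (adjusted p = 7.05e-05). Itga6, the laminin-binding integrin chain that pairs with CD151, fell by 1.68 on the log2 scale (adjusted p = 3.64e-06). It was the only integrin chain of the list that fell. For Igsf8, Cd36 and Itga6, sham replicate 1 was the lowest sham-treated sample, as it was for the summed macrophage markers. For Ptgfrn it was level with sham replicate 2, and for Tspan3 and Tspan33, which also fell, sham replicate 2 was the lowest. The part of macrophage RNA in these values was not tested.

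Hbegf, a growth factor precursor that CD9 binds at the cell surface, was the most increased partner. It had 36.9, 13.5 and 10.9 normalized counts with sham and 242, 286 and 329 with EVs, a log2 change of 3.74 (standard error 0.397, adjusted p = 5.22e-05). Cd47, the signal that protects cells from phagocytosis, rose 2.01-fold (adjusted p = 2.02e-06). The leukocyte integrin chains Itgb7, Itgb2, Itgam, Itga4 and Itgal rose by 0.79, 0.36, 0.34, 0.30 and 0.28 on the log2 scale, and each was higher in every EV-treated sample. With library totals as the only scaling, Itgal and Itga4 did not pass (adjusted p = 0.0746 and 0.0482). Itgal also did not pass without sham replicate 3 (0.0127), EV replicate 2 (0.0166) or EV replicate 3 (0.0194), and Itga4 without EV replicate 2 (0.0141).

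Genes that form and release vesicles moved about as often as genes in general. All 45 were tested, 4 rose and 6 fell, 22.2% called against 23.7% of all genes tested, with a median log2 change of 0.07. With library totals as the only scaling, 2 were higher and 8 lower. The EV markers Pdcd6ip (ALIX) and Tsg101 had log2 changes of 0.05 (adjusted p = 0.576) and 0.01 (adjusted p = 0.933), with overlapping groups. Sdcbp, which encodes syntenin, the adaptor that links syndecans and CD63 to ALIX, had 9363, 11340.0 and 11364 normalized counts with sham and 7741, 8006 and 7515 with EVs, a log2 change of -0.46 (adjusted p = 0.00119). Without EV replicate 3 its adjusted p was 0.0101. The syndecans Sdc1 and Sdc3 fell by 2.61 and 2.12 on the log2 scale, and Pld2, a phospholipase of the same route, fell by 2.85. For these 4 genes, too, sham replicate 1 was the lowest sham-treated sample. Smpd3, the neutral sphingomyelinase of ceramide-dependent vesicle budding, rose by 1.62 on the log2 scale (adjusted p = 9.62e-06), from between 281 and 346 to between 859 and 1105 normalized counts. Anxa2 and Flot1 rose by 0.56 and 0.41, and Flot1 did not pass with library totals as the only scaling (adjusted p = 0.0105). Among these genes that rose, sham replicate 1 was the lowest sham-treated sample for Smpd3 and Anxa2 and the highest for Flot1.

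In a list that pools genes that sort CD63 with genes of the lysosomal membrane, falls outnumbered rises. Of 26 tested, 2 rose and 9 fell, against 12.1% higher and 11.6% lower among all genes tested. The median log2 change was -0.21. None of the adaptor subunit genes of the list fell at the cutoff, and Ap3m1, which is one of them, rose. With library totals as the only scaling, 2 were higher and 11 lower. Lamp1, the major lysosomal membrane glycoprotein, had 18758, 21329 and 21092 normalized counts with sham and 14316, 14812 and 14850.4 with EVs, a log2 change of -0.48 (adjusted p = 0.000193). Cd68, a lysosomal glycoprotein abundant in macrophages, fell by 2.13 on the log2 scale, Slc15a3, a lysosomal transporter, by 1.96, and Scarb2, a lysosomal membrane receptor, by 1.12. In each of these 4 genes sham replicate 1 was the lowest of its group, as it was for the summed macrophage markers. The part of macrophage RNA in these values was not tested. Ap3m1, a subunit of the adaptor that delivers CD63 to lysosomes, and Laptm5 rose by 0.57 and 0.44 on the log2 scale. Sham replicate 1 was also the lowest sham-treated sample for Ap3m1 (1418, against 1534 and 1796), although this gene rose. It was the highest for Laptm5 (37218, against 35922 and 36091). Cd63, which fell, had its highest value in sham replicate 1, and the part of macrophage RNA in its change was not tested.

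**Figure D4:**
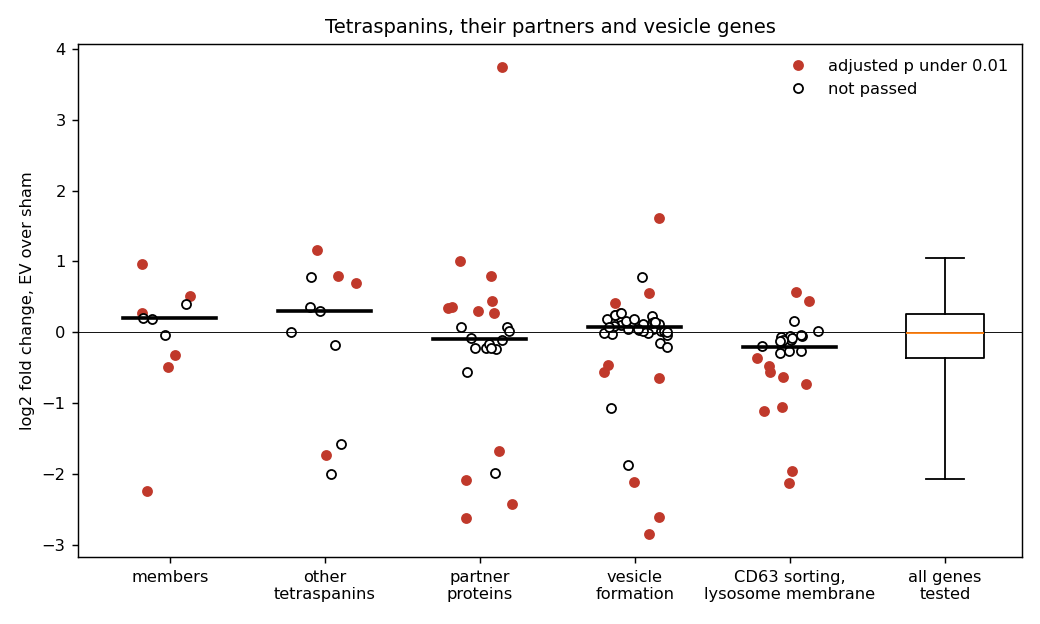
Log2 changes (EV over sham) of the tested genes of each list, red where the adjusted p was under 0.01, with a line at the list median and, for all genes tested, a box of the quartiles with whiskers at the 5th and 95th percentiles. Medians lie at 0.20, 0.31, -0.09, 0.07 and -0.21 from left to right, and Tspan8 and Tspan33 are not drawn.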

How the data were processed

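Bulk RNA sequencing of 3 sham-treated and 3 EV-treated eosinophil samples was analysed, grouped by the sample titles. Per the study's methods and the submitters' processing notes, reads were checked with FastQC, trimmed with Cutadapt and quantified with Salmon against mm10. Versions, annotation and strand setting are not given in the sources used here. The authors deposited estimated counts per gene symbol, which need not be whole, and these were rounded. Their normalized counts, and their table of mean counts, fold changes, standard errors, test statistics and p-values, were not used.

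Counts were filtered with filterByExpr, scaled by TMM and tested with edgeR 4.0.16 (glmQLFit, glmQLFTest; R 4.3.3) with Benjamini-Hochberg adjustment over 13498 genes. A call needed an adjusted p under 0.01, and standard errors are the log2 fold change over the square root of F. Depth, 23697620 to 37874426 counts per library, makes counting error small beside the spread between samples except for genes with few counts. Within-group library pairs differed by more than sampling noise, and sham pairs more than EV pairs. Chi-square per gene was 8.37 to 9.94 for EV pairs and 13.5 for sham replicates 2 and 3. It was 31.8 and 26.3 for sham replicate 1 with sham replicates 2 and 3. The tests were tried on simulated counts. The first requirement, that nearly all changed genes with ample counts be recovered, was not met by edgeR or limma-voom, and after that failure it was narrowed to 4-fold changes, so smaller changes can be missed. Alternatives were 3 other scalings, no filter, DESeq2 1.42.0, limma-voom (limma 3.58.1), the replicate number as a block, other thresholds and leaving out each sample. The genes studied and all lists, written from general knowledge, were chosen with earlier results of these data known. The named genes of each list were the 3 most changed calls in each direction, plus direct partners and vesicle markers. Itga6, Itgb2, Itgam, Itga4, Itgal, Lamp1, Polr2l, Chid1, Tead2, and the neutrophil, platelet and T cell markers named singly were added outside it, once their values were known.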

Additional observations from a re-analysis of the deposited data

How the results depend on the processing

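Of 130 log2 fold changes of single tetraspanins under the alternatives, 115 kept their direction and their side of the cutoff, 11 no longer passed and 2 passed that had not. That of Cd82 changed sign in 2 fits and ranged from -0.0656 to 0.00934 with each sample left out (0.00934 without sham replicate 1 and 0.00104 without EV replicate 1). Cd81, Cd53, Cd63 and Tspan4 passed in each of the 13 alternative fits. With each sample left out, between 2 and 5 of the 10 were higher and between 2 and 3 lower, and over all genes between 2089 (without EV replicate 3) and 3531 (without sham replicate 1) were called against 3204, with fewer samples in each such fit. With a log2 fold change of at least 1 in size as well, 0 were higher, 1 was lower and 1276 of all genes were called, and at an adjusted p under 0.05 4840 genes were called. Library totals as the only scaling moved the median of all genes by -0.148 on the log2 scale and the share of higher genes among calls from 50.9% to 30.7%, and no tetraspanin of the 10 changed sign under another scaling. Of 10 ranks by level per kilobase with sham, 2 held with median transcript lengths. The replicate numbers do not pair the samples by the labels. Deviations of log2 CPM from the group mean were correlated across genes between sham- and EV-treated samples. Same-numbered samples had r = 0.106, 0.083 and 0.0417, each the best match for its number. With the replicate number as a block, 3 of the 10 were higher and 3 lower, and 3575 genes were called against 3204. Of the lists, 6 other tetraspanins, 13 partner genes, 10 vesicle genes and 11 CD63 sorting or lysosome membrane genes were called. The block changed the call of none of the 10. Without the block, Tspan8 had an adjusted p of 0.00495, and with it 0.01. Depth limited the values of Tspan8 and Tspan33, which had few counts.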
